A study of Mus musculus with 16 samples.

Results

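The integrated stress response was followed through 10 genes of the read-count table, taken by symbol from the 55416 genes counted. They were 3 of the kinases that start the response (*Eif2ak1*, *Eif2ak3* and *Eif2ak4*), the transcription factors *Atf4*, *Atf5* and *Ddit3*, the effectors *Trib3*, *Chac1* and *Nupr1*, and the phosphatase subunit *Ppp1r15a*. Each symbol had 1 row in the table except *Ddit3*, whose second row lay within the first, held no reads in any library and was not used. Erythroblasts of stages S1 and S3 were sorted on Ter119 and CD71 from E13.5 foetal livers and their RNA was sequenced, with 1 library for each of 8 embryos at each stage. Of these embryos, 4 were wild-type (WT, Nprl3+/+; 2 female and 2 male), 2 were heterozygous (Het, Nprl3+/-; both male) and 2 were homozygous for the knockout (KO, Nprl3-/-; 1 female and 1 male). The knockout is constitutive and removes the *Nprl3* promoter in every tissue of the embryo, and each library came from 10000 to 30000 sorted cells whose RNA was amplified before library preparation. Nprl3 belongs to GATOR-1, a complex that restrains the growth regulator mTORC1, and the question was how its loss alters erythroblast gene expression.

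In the integrated stress response, a kinase that senses a particular stress phosphorylates the initiation factor eIF2, which lowers general translation while letting the transcription factor ATF4 be made from its existing mRNA. The heme-regulated kinase HRI (*Eif2ak1*) is the one best known in erythroid cells, where it matches globin synthesis to heme supply. PERK (*Eif2ak3*) responds to misfolded protein in the endoplasmic reticulum and GCN2 (*Eif2ak4*) to uncharged tRNA when amino acids run short. Because ATF4 is controlled largely at translation, transcripts of its target genes are a common readout of the pathway, and mRNA counts of the kinases and of *Atf4* do not measure their activity.

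The labelled genotypes were first checked on *Nprl3* itself. At S1 its normalised count (CPM, reads scaled to a common library total) was 22.6 to 32.6 in WT, 12.7 and 12.98 in Het and 0.319 and 0.676 in KO, with a log2 fold change of -5.72 (standard error, SE, 0.43; adjusted p = 0.0212). At S3 it was 107 and 111 in KO and 146 to 204 in WT, a difference that did not pass the test (log2 fold change -0.55, SE 0.19, adjusted p = 0.381). The study describes *Nprl3* transcripts that start at the enhancers within the gene, and counts per gene do not separate these from transcripts of the deleted promoter. Each library held 20666044 to 37609502 counts. Globin transcripts took 10.0 to 11.9% of the counts at S3 and 0.0738 to 1.07% at S1, and the 6 embryonic stem cell markers found in the table summed to at most 0.102 CPM, although the labels' tissue field names an embryonic stem cell line. The S1 libraries of WT embryos 0 and 8, the 2 male WT embryos, stood apart, with globin at 1.07 and 1.00% and neutrophil markers summing to 204 and 117 CPM, against 1153 to 1700 CPM in the other 6. At S3 the same 2 embryos differed less from each other (mean chi-square per gene 14.8) than from WT embryos 1 and 5 (50.8 to 75.8), and their hepatoblast markers summed to 1023 and 620 CPM, against 325 and 245 CPM. Comparisons with WT at both stages rest on these libraries, and values without both embryos are given beside several results.

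*Trib3* was the 1 gene of the 10 that the main test called higher in KO erythroblasts at S3. *Trib3* encodes a pseudokinase that is induced by ATF4 and CHOP and restrains both. It reached 56.2 and 50.2 CPM in the KO libraries, against 12.4, 11.2, 15.1 and 9.10 CPM in WT embryos 0, 1, 5 and 8 and 10.8 and 12.8 CPM in the Het libraries. Both KO libraries lay far above every other S3 library, while Het and WT overlapped. The rise was 4.63-fold (log2 fold change 2.21, SE 0.18, adjusted p = 0.00428 by the quasi-likelihood F test of edgeR, with Benjamini-Hochberg correction over 11804 genes). In this comparison 0.457% of all genes tested were called higher and 0.102% lower. The call held in all 17 other fits made, with log2 fold changes between 2.10 and 2.32 and adjusted p of at most 0.0340, and without WT embryos 0 and 8 it was 2.10 (adjusted p = 0.0294).

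**Figure D1:**
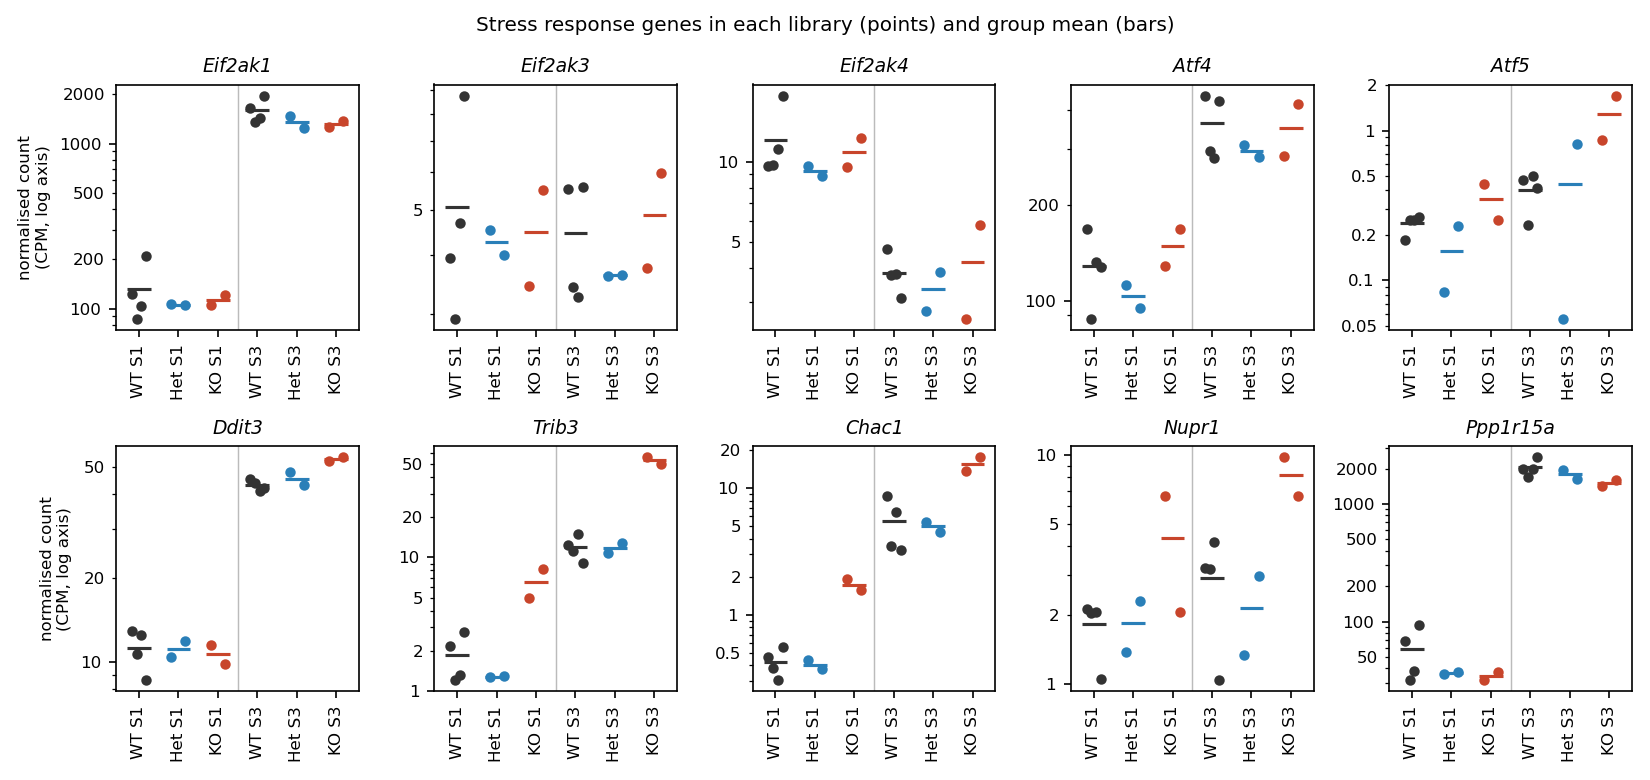
Normalised counts (CPM, log axis) of the 10 genes in each of the 16 libraries by genotype and stage, with points for libraries and bars for group means. Trib3 and Chac1 are higher in both KO libraries than in every WT library at each stage, whereas the kinases and Atf4 overlap between KO and WT.

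Sequences upstream of the start sites are shown for *Trib3*, for the 2 genes of the 10 whose window held the composite site bound by ATF4 with C/EBP family partners, and for *Slc7a11*, a listed target of ATF4 that also rose in KO at S3 and was the 1 of 4 searched targets with a match. Each is 250 bases that end just before the start of the canonical transcript in GRCm39 (mm39), read from 5′ to 3′ on the gene's strand. Capitals mark every match to TGATGNAA on either strand. The windows are *Trib3* at chr2:152186013-152186262 (minus strand), *Chac1* at chr2:119181439-119181688 (plus), *Ddit3* at chr10:127126310-127126559 (plus) and *Slc7a11* at chr3:50398064-50398313 (minus).
Trib3: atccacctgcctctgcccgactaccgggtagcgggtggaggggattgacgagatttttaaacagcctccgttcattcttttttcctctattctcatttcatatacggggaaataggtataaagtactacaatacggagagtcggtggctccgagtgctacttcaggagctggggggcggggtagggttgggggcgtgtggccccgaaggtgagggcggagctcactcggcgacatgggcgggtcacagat
Chac1: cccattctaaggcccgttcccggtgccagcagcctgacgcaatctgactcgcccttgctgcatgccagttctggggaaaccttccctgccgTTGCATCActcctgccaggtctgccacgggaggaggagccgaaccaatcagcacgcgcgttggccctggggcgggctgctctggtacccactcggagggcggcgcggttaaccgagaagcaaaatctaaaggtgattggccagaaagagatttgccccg
Ddit3: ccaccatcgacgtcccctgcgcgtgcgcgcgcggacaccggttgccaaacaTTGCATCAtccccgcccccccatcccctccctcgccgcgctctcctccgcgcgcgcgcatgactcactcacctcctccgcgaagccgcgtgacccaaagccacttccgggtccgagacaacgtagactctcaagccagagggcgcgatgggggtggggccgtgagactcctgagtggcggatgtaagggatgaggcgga
Slc7a11: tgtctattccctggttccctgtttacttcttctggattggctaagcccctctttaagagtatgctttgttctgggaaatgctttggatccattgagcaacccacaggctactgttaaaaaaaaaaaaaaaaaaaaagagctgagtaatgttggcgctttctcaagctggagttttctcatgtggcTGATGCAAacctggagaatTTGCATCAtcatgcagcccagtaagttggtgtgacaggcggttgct
The motif was found once in the *Chac1* window, 159 bases before the start site, and once in the *Ddit3* window, at 199 bases, both on the opposite strand. *Slc7a11* held 2 matches, at 65 bases on the gene's strand and at 46 bases on the opposite strand. Of 21757 windows of protein-coding genes, 3.39% held the motif and 13 windows held 2 or more. The *Trib3* window, those of the other 7 genes, and those of the searched targets *Cth*, *Slc7a3* and *Asns* held no match, which says only that these letters are absent from the 250 bases searched.

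*Chac1*, *Nupr1* and *Atf5* had higher values in KO at S3 but did not pass the test. *Chac1*, which encodes an enzyme that degrades glutathione, was at 13.6 and 17.6 CPM in KO and at 8.75, 3.51, 6.44 and 3.24 CPM in WT embryos 0, 1, 5 and 8, so that both KO libraries exceeded every WT library. Its log2 fold change was 1.56 (SE 0.37, adjusted p = 0.163), or 1.73 without WT embryos 0 and 8, and it passed in 5 of the 17 other fits, among them DESeq2 (adjusted p = 0.00732) and edgeR with sex as a covariate (adjusted p = 0.0177), with adjusted p from 6.31e-05 to 0.493 over the 17. *Nupr1* encodes a small stress-induced chromatin protein. It was at 9.80 and 6.63 CPM in KO and at 3.21, 3.18, 4.18 and 1.03 CPM in WT, again without overlap, with a log2 fold change of 1.54 (SE 0.41, adjusted p = 0.223), or 1.24 without WT embryos 0 and 8. It passed in 4 of the 17 other fits, among them DESeq2 (adjusted p = 0.0283) and edgeR with sex as a covariate (adjusted p = 0.0184). Adjusted p ran from 0.000431 to 0.799 over the 17.

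The transcription factors differed less, or were too scarce to judge. *Atf4* is the central factor of the pathway, and its mRNA was at 286 and 416 CPM in KO, within the WT values of 443, 297, 283 and 425 CPM. Its log2 fold change was 0.01 (SE 0.25, adjusted p = 0.997), and its sign turned in several fits. Without WT embryos 0 and 8 it was 0.37 (adjusted p = 0.762). *Ddit3* encodes CHOP, a factor that acts downstream of ATF4 in prolonged stress. It was at 52.3 and 54.1 CPM in KO and at 45.1, 43.7, 41.1 and 41.9 CPM in WT, so that the groups did not overlap although they lay close together. Its log2 fold change was 0.37 (SE 0.13, adjusted p = 0.381), which passed only in the 2 fits with sex as a covariate (adjusted p = 0.0416 by edgeR and 0.0485 by DESeq2). *Atf5*, a related factor tied to the mitochondrial stress response, held 14 and 32 reads in the KO libraries and 5 to 13 in WT. It passed the filter on low counts only through the KO libraries, and its log2 fold change of 1.72 (SE 0.48, adjusted p = 0.243) rests on those few reads.

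None of the 3 kinases passed the test in KO erythroblasts at S3. *Eif2ak1* was at 1265 and 1369 CPM in KO and at 1648, 1346, 1434 and 1953 CPM in WT, which overlapped (log2 fold change -0.22, SE 0.19, adjusted p = 0.859). Without WT embryos 0 and 8 its log2 fold change was 0.01. *Eif2ak3* and *Eif2ak4* were scarce, at 3.76 and 5.99 CPM and at 2.59 and 5.83 CPM in KO, where WT was at 3.26 to 5.58 CPM and at 3.10 to 4.73 CPM. Both genes overlapped WT. The log2 fold changes were 0.20 (SE 0.34) for *Eif2ak3* and 0.19 (SE 0.34) for *Eif2ak4*, and without WT embryos 0 and 8 they were 0.65 and 0.26. In both genes the higher KO value was that of embryo 9, the male.

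*Ppp1r15a* encodes GADD34, which brings a phosphatase to eIF2 and ends the response. It was at 1417 and 1611 CPM in KO, below the 2004, 1700, 2001 and 2510 CPM of WT, with Het at 1964 CPM, within the WT range, and 1625 CPM, just below it. The KO and WT groups did not overlap, but the log2 fold change of -0.39 (SE 0.19, adjusted p = 0.659) passed only in DESeq2 with sex as a covariate (adjusted p = 0.0271). Without WT embryos 0 and 8 it was -0.20.

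With *Atf5* left out, because its KO libraries carried it past the filter, 4 of the other 9 genes (*Ddit3*, *Trib3*, *Chac1* and *Nupr1*) had both KO libraries above all 4 WT libraries at S3, and 1 (*Ppp1r15a*) had both below. Over all genes tested, the groups did not overlap with KO higher in 6.57% and with KO lower in 12.1%. The median log2 fold change of the 9 was 0.20, against 0.01 over all genes. Single KO libraries decided it, since it was 0.50 without KO embryo 2 and -0.19 without KO embryo 9, and it was 0.42 without WT embryos 0 and 8. Other values moved with this comparison. Markers of macrophages, which are present among foetal liver erythroblasts, summed to 26.3 and 41.1 CPM in KO and 53.7 to 114 CPM in WT over 15 genes, each of which had reads in both groups. The 15 erythroid markers summed to 157400 and 158100 CPM in KO and 176700 to 207500 CPM in WT. Hepatoblast markers summed to 108 and 267 CPM in KO and 245 to 1023 CPM in WT over 14 genes. The part of these markers in the result was not tested. The 12 listed interferon-stimulated genes summed to 1068 and 2500 CPM in KO at S3 and to 105 to 286 CPM in WT, and their part was likewise not tested. In sorted bulk cells, fewer cells of a type cannot be told apart from less RNA in each.

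At S1 none of the 10 genes passed edgeR's test between KO and WT, as against 0.00712% of all genes, which was *Nprl3* alone. The unadjusted p was under 0.05 for 3 of them (*Trib3*, *Chac1* and *Nupr1*) and for 2.53% of all genes, and DESeq2 called 2 of the 10 and 0.321% of all genes. *Trib3* was at 5.01 and 8.19 CPM in KO and at 2.19, 1.21, 1.32 and 2.75 CPM in WT, with a log2 fold change of 1.82 (SE 0.42, adjusted p = 1.00; DESeq2 adjusted p = 0.0359) and of 2.40 without WT embryos 0 and 8 (adjusted p = 0.568). *Chac1* was at 1.91 and 1.56 CPM in KO and 0.468, 0.378, 0.306 and 0.555 CPM in WT, with a log2 fold change of 2.02 (SE 0.37, adjusted p = 0.642; DESeq2 adjusted p = 0.0106). In both genes each KO library lay above every WT library, at a level well below that of S3. The KO and WT groups did not overlap, with KO higher, for these 2 genes of the 10 and for 6.17% of all genes. Neutrophil markers at S1 summed to 1622 and 1700 CPM in KO and 117 to 1377 CPM in WT. Of these sums *Mpo* alone made up 1227 to 1264 CPM in KO and 94.6 to 971 CPM in WT. Of the 11 neutrophil markers, *Mpo* and *Ctsg* lay above WT in both KO libraries and the other 9 overlapped. Macrophage markers summed to 74.8 and 77.0 CPM in KO and 35.2 to 63.3 CPM in WT, of which *Lyz2*, which neutrophils also express, made up 46.7 to 53.6 CPM in KO and 9.55 to 40.2 CPM in WT. Of the 15 macrophage markers, *Lyz2* and *Csf1r* lay above WT in both KO libraries, *Marco* lay below, and the other 12 overlapped. The interferon-stimulated genes summed to 133 and 312 CPM in KO and 24.6 to 72.0 CPM in WT. Their part in these values was not tested.

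*Nupr1* at S1 was high in KO embryo 2 alone, at 6.63 CPM, while KO embryo 9 at 2.05 CPM lay among the WT values of 1.05 to 2.12 CPM. Its log2 fold change was 1.26 (SE 0.48, adjusted p = 1.00) and fell to 0.19 without embryo 2. *Atf4* at 129 and 169 CPM, *Ddit3* at 11.5 and 9.84 CPM and *Eif2ak1* at 105 and 122 CPM in KO all overlapped WT. *Ppp1r15a* was at 31.9 and 36.9 CPM in KO and 31.7 to 93.1 CPM in WT, where the 2 highest values, 68.8 and 93.1 CPM, came from WT embryos 0 and 8. Its log2 fold change of -0.76 (SE 0.46) moved to 0.0043 without those embryos. The interaction, which tests whether the KO difference itself changed between stages, was not significant by edgeR for any of the 10 genes, with 0 at an unadjusted p under 0.05 and 0 by DESeq2. Of all genes edgeR called 0.00742%, which was *Nprl3* alone, DESeq2 called 0.089%, and 3.11% had an unadjusted p under 0.05. For *Trib3* the interaction was 0.40 on the log2 scale (SE 0.49, adjusted p = 1.00), and -0.33 without WT embryos 0 and 8.

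**Figure D2:**
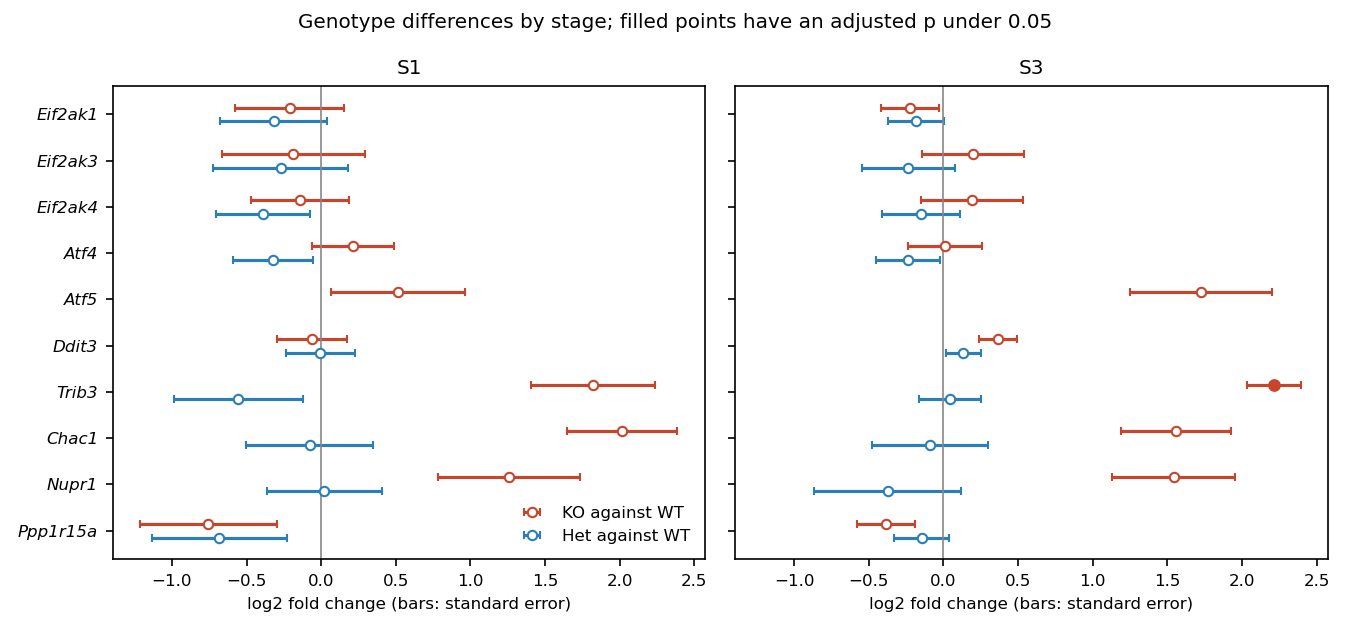
Log2 fold changes (x axis) of the 10 genes in KO (red) and Het (blue) against WT at S1 and S3, with bars for the standard error and filled points for an adjusted p under 0.05. Trib3 in KO at S3, at 2.21, is the 1 filled point, and the Het values run from -0.68 to 0.13.

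The Het comparisons share their WT libraries with those of KO. In heterozygotes none of the 9 genes tested passed edgeR's test at either stage, with 0 at an unadjusted p under 0.05 and 0 by DESeq2. Of all genes edgeR called 0.0% at either stage and DESeq2 0.00851% at S3 and 0.217% at S1, and 3.18% at S3 and 4.26% at S1 had an unadjusted p under 0.05. *Trib3* in Het was at 10.8 and 12.8 CPM at S3 (log2 fold change 0.04, SE 0.21, adjusted p = 0.970) and at 1.28 and 1.29 CPM at S1, where WT was at 1.21 to 2.75 CPM. *Chac1* was at 5.45 and 4.55 CPM at S3 and *Nupr1* at 1.33 and 2.97 CPM, both within the WT range. Over the 10 genes, 0 had both Het libraries beyond all WT libraries at S3 and 1, *Eif2ak4*, lay below them at S1, at 9.64 and 8.88 CPM against 9.65 to 17.7 CPM. Among all genes tested the Het and WT libraries did not overlap in 14.8% at S3, and both Het libraries lay below WT in 9.3% at S1. *Atf5* was too scarce to be tested, with 1 and 16 reads in the Het libraries at S3 and 4 and 8 at S1. Both Het embryos were male, and the only male WT embryos were 0 and 8, so that fits with sex as a covariate compare Het mainly with the embryos that stood apart at S1. Those fits called *Atf4* lower in Het at S3 (edgeR log2 fold change -0.53, adjusted p = 0.00557) and *Ppp1r15a* lower at S1 (-1.19, adjusted p = 0.0296), and DESeq2 with sex also called *Eif2ak1* lower at S3 (-0.37, adjusted p = 0.0226). Over all genes edgeR with sex called 18.1% at S3 and 2.87% at S1.

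Most of the pathway's transcripts changed between the stages of wild-type cells, as did most genes. From S1 to S3, 6 of the 9 genes tested rose and 1 fell, where 30.6% of all genes rose and 35.0% fell. The median log2 difference of the 9 was 2.00, against -0.08 over all genes. Markers of other cells moved between the same libraries. Neutrophil markers summed to 117 to 1377 CPM at S1 and 1.11 to 4.78 CPM at S3, those of early progenitors to 168 to 229 CPM and 5.79 to 8.83 CPM, and those of hepatoblasts to 73.5 to 399 CPM and 245 to 1023 CPM. Their part in the stage differences was not tested. *Ppp1r15a* moved most, from 68.8, 31.7, 37.9 and 93.1 CPM at S1 in WT embryos 0, 1, 5 and 8 to 2004, 1700, 2001 and 2510 CPM at S3. This was a 37.1-fold rise (log2 fold change 5.21, SE 0.39, adjusted p = 1.93e-06), and no S1 library came near the S3 range. *Eif2ak1*, for the heme-regulated kinase, went from 123, 87.1, 104 and 209 CPM to 1648, 1346, 1434 and 1953 CPM, a 12.8-fold rise (log2 fold change 3.67, SE 0.30, adjusted p = 3.59e-06). The S1 values were again highest in embryo 8, but the stages lay far apart.

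*Chac1*, *Trib3*, *Ddit3* and *Atf4* rose as well. *Chac1* had a log2 fold change of 3.73 (SE 0.41), from 0.306 to 0.555 CPM up to 3.24 to 8.75 CPM. *Trib3* had one of 2.73 (SE 0.31), from 1.21 to 2.75 CPM up to 9.10 to 15.1 CPM. *Ddit3* rose 4.01-fold (log2 fold change 2.00, SE 0.16), from 8.63 to 12.99 CPM up to 41.1 to 45.1 CPM. *Atf4* rose 2.94-fold (log2 fold change 1.56, SE 0.24, adjusted p = 0.000224), from 87.8 to 168 CPM up to 283 to 443 CPM.

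Of the other kinases, *Eif2ak4* fell, from 9.65 to 17.7 CPM down to 3.10 to 4.73 CPM (log2 fold change -1.58, SE 0.25, adjusted p = 0.000291). *Eif2ak3* had a log2 fold change of -0.13 (SE 0.37, adjusted p = 0.771). *Nupr1* overlapped between the stages, at 1.05 to 2.12 CPM and 1.03 to 4.18 CPM, and its log2 fold change of 0.74 (SE 0.40, adjusted p = 0.122) passed without WT embryo 8 (0.86, adjusted p = 0.0158) and without embryos 0 and 8 (0.90, adjusted p = 0.0409). These values depend on how the stages are scaled. With library totals alone the median of all genes tested moved from -0.08 to -1.10, *Eif2ak3* then fell (-1.18, adjusted p = 0.0189), *Nupr1* turned to -0.25, and the rise of *Atf4* was 0.53 and no longer passed (adjusted p = 0.0624). The other 5 rises and the fall of *Eif2ak4* passed under both scalings. The fit with the embryo as a block gave the same 7 calls.

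**Figure D3:**
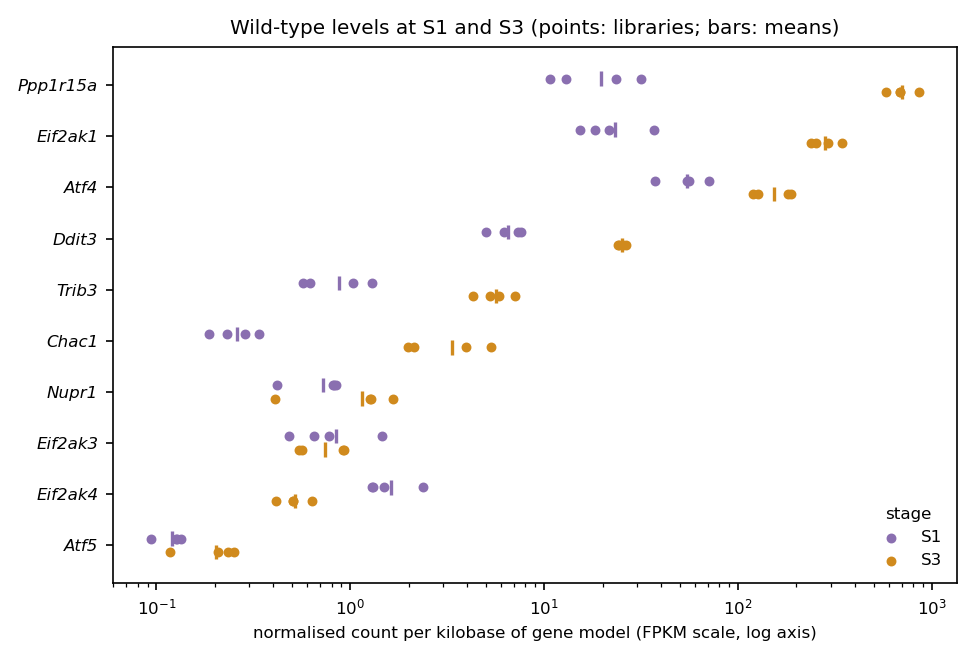
Normalised counts per kilobase of gene model (log axis) of the 10 genes in the 4 WT libraries at S1 (purple) and S3 (orange), with points for libraries and bars for means, ordered by the S3 mean. Ppp1r15a and Eif2ak1 lie below Atf4 at S1 and above it at S3, and Eif2ak4 moves the other way.

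Per kilobase of gene model, the order of the 10 genes changed between the stages. At S1 in WT the mean normalised count per kilobase was highest for *Atf4*, at 54.7 ± 13.9 (SD, n = 4), followed by *Eif2ak1* at 23.1 ± 9.57 and *Ppp1r15a* at 19.7 ± 9.72, which overlapped each other. *Ddit3* followed at 6.55 ± 1.16. At S3 *Ppp1r15a* led at 699 ± 114 (SD, n = 4), ahead of *Eif2ak1* at 281 ± 47.6 and *Atf4* at 153 ± 35.5, and these 3 did not overlap. Next came *Ddit3* at 25.1 ± 1.05, *Trib3* at 5.62 ± 1.17 and *Chac1* at 3.35 ± 1.597, of which the last 2 overlapped. *Nupr1*, *Eif2ak3* and *Eif2ak4* lay at 1.15, 0.738 and 0.517 with overlapping libraries, and *Atf5* was lowest at 0.202 ± 0.0592. Among the kinases, *Eif2ak1* stood far above the other two at both stages. In KO at S3, *Trib3* reached 25.04 ± 1.99 (SD, n = 2) per kilobase, close to the WT level of *Ddit3*.

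Wider lists of the pathway were then read beside the 10 genes. All lists were chosen with earlier results of these data known, so their counts describe these data and are no independent support. The list of ATF4 and CHOP targets includes *Psat1*, *Phgdh*, *Psph*, *Gpt2* and *Shmt2*. The study itself names these genes in its figure of genes upregulated in KO at S3. Of 50 listed targets of ATF4 and CHOP 41 were tested in KO at S3, and *Slc7a3*, which its KO libraries carried past the filter on low counts, is left out of the counts that follow. Of the other 40, 2 rose and 0 fell, where 0.457% of all genes were called higher. An unadjusted p under 0.05 was found for 18 of the 40 and for 8.52% of all genes, and 21 had both KO libraries above every WT library, where 6.57% of all genes did. DESeq2 called 9 of the 40, where it called 2.19% of all genes, and edgeR with sex as a covariate 16, where it called 4.63%. Without WT embryo 8, and without embryos 0 and 8, edgeR called 1 of the 40. Calls over all genes also fell in these fits, as given in the last section. The median log2 fold change of the 40 was 0.29. *Slc7a11*, the cystine importer, was at 18.1 and 14.1 CPM in KO and 0.981 to 1.94 CPM in WT (log2 fold change 3.60, SE 0.29, adjusted p = 0.00428). *Slc7a3*, a carrier of cationic amino acids, held 121 and 68 reads in KO and 2 to 8 in WT. Because it was tested only through its KO reads, its call is not read as a result. *Cth*, which makes cysteine from cystathionine, was at 23.9 and 15.8 CPM in KO and 4.44 to 6.04 CPM in WT (log2 fold change 1.99, SE 0.22, adjusted p = 0.0133). In *Slc7a11* and *Cth* both KO libraries were clear of WT and Het. At S1 edgeR called 0 of 44 tested targets, with 5 at an unadjusted p under 0.05 and 3 by DESeq2, where 2.53% and 0.321% of all genes did so, and the list's median was 0.14. In Het it called 0 of 40 targets at S3 and 0 of 44 at S1, with 1 and 0 at an unadjusted p under 0.05, where 3.18% and 4.26% of all genes were, and 0 by DESeq2. With sex as a covariate edgeR called 5 of the 40 in Het at S3, where it called 18.1% of all genes, and 0 of the 44 at S1, where it called 2.87%. From S1 to S3 in WT, and without 3 of the 44 targets that only 1 stage carried past the filter, 16 of 41 rose and 14 fell, where 30.6% and 35.0% of all genes did.

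**Figure D4:**
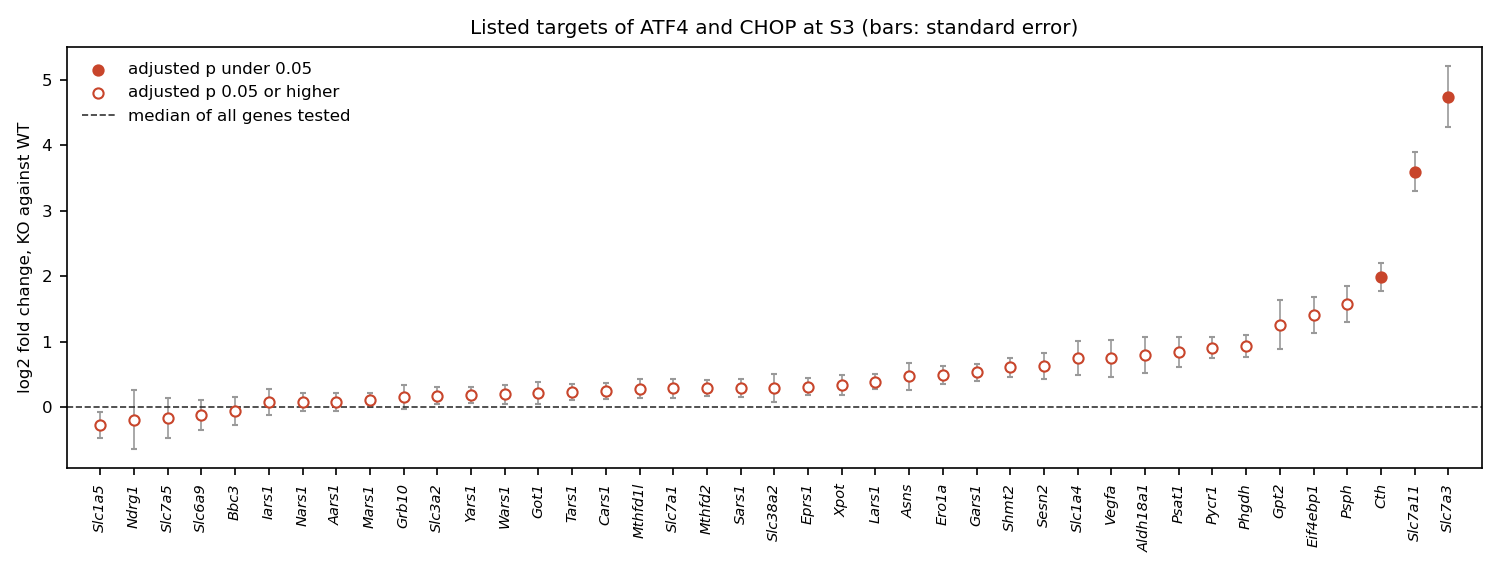
Log2 fold changes of the 41 tested targets of ATF4 and CHOP in KO against WT at S3 (y axis), ordered by value, with bars for the standard error, filled points for an adjusted p under 0.05 and a dashed line at the median of all genes. Slc7a11 and Cth are filled, as is Slc7a3, which its KO libraries carried past the filter, and 35 of the 40 other than Slc7a3 lie above 0. The list was chosen with earlier results of these data known.

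Related lists of cellular stress genes were read in the same way, against 8.52% of all genes with an unadjusted p under 0.05 and 2.19% called by DESeq2. Of the further machinery of the integrated stress response, such as subunits of eIF2 and eIF2B and partners of the kinases, edgeR called 0 of 21 genes tested in KO at S3, with 3 at an unadjusted p under 0.05 and 2 by DESeq2. The smallest p was that of *Eif2ak2*, for the RNA-sensing kinase PKR, which is itself induced by interferon. It was at 79.2 and 56.4 CPM in KO and 13.6 to 34.1 CPM in WT (log2 fold change 1.54, SE 0.29, adjusted p = 0.0745). *Cebpb*, a partner of ATF4, was at 7.34 and 5.45 CPM in KO and 2.07 to 3.60 CPM in WT (1.25, SE 0.27, adjusted p = 0.112). *Gcn1*, which activates GCN2, had a log2 fold change of 0.45 (SE 0.17, adjusted p = 0.440).

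In the ATF6 and IRE1 arms of the unfolded protein response, edgeR called 0 of 21 tested at S3, with 1 at an unadjusted p under 0.05 and 0 by DESeq2. The 3 smallest p there were those of *Dnajb9* (0.72, SE 0.23), *Ern1* (-0.38, SE 0.26) and *Herpud1* (0.19, SE 0.16). At S1 edgeR and DESeq2 called 0 of these 21, with 2 at an unadjusted p under 0.05 (2.53% of all genes). Both KO libraries lay above every WT library at S1 in 7 of the 21 (6.17% of all genes) and below in 0, and the list's median was 0.23. Among 11 mitochondrial chaperones and proteases 0 passed at S3, with 2 at an unadjusted p under 0.05 and 0 by DESeq2. They were led by *Hspa9*, the main mitochondrial chaperone (0.58, SE 0.18, adjusted p = 0.328 by edgeR), *Dnaja3* (0.36, SE 0.15) and *Lonp1* (0.34, SE 0.17).

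The interferon-stimulated genes were listed because PKR belongs to both responses. At S3, 7 of 11 tested rose in KO and 0 fell, where 0.457% and 0.102% of all genes did, with a median log2 fold change of 3.00. The count depended on single libraries. With 1 WT embryo left out in turn, edgeR called 0 of the 11 without embryo 8, 1 without embryo 0, 3 without embryo 1 and 6 without embryo 5. Calls over all genes also fell without embryo 0 or embryo 8, as given in the last section. With any 1 embryo left out, WT or KO, the median stayed between 2.13 and 3.59. *Isg15* had a log2 fold change of 4.69 (SE 0.49), *Oas1a* of 4.07 (SE 0.62), *Rsad2* of 3.86 (SE 0.44) and *Ifit1* of 3.00 (SE 0.47). In each of these 4 genes KO embryo 2 was the higher of the 2 KO libraries. Embryo 2 was also the higher in *Trib3* (56.2 and 50.2 CPM), *Nupr1* (9.80 and 6.63 CPM), *Slc7a11* (18.1 and 14.1 CPM) and *Cth* (23.9 and 15.8 CPM). Embryo 9 was the higher in *Chac1* (13.6 and 17.6 CPM) and in the rest of the 10 genes. At S1 the interferon-stimulated genes summed to 312 CPM in KO embryo 2 and 133 CPM in embryo 9. There *Trib3* was at 5.01 and 8.19 CPM, with embryo 9 the higher, while embryo 2 was the higher in *Chac1* and *Nupr1*. At S1, without *Ifit1* and *Rsad2*, which their KO libraries carried past the filter, edgeR called 0 of 9 interferon-stimulated genes, with 8 at an unadjusted p under 0.05 (2.53% of all genes) and 7 by DESeq2 (0.321% of all genes).

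Likeness of pattern was described by Pearson's r of log2 CPM over the 16 libraries, after the mean of each stage was subtracted, among 10210 genes. The libraries share embryos and, for KO, the genotype, so these values are a description. For *Trib3* the 3 most alike were *Parp12*, an interferon-induced polymerase (r = 0.93), *Chac1* (r = 0.91) and *P4ha1*, a collagen prolyl hydroxylase subunit (r = 0.90). *Atf4* itself had r = 0.35 with *Trib3*. For *Atf4* they were *Hapstr1* (r = 0.90), *Mtpn* (r = 0.89) and *Mfap1a* (r = 0.88). For *Eif2ak1* they were *Ube2h*, a ubiquitin-conjugating enzyme that accumulates in maturing erythroblasts (r = 0.98), *Fbxo45* (r = 0.97) and *Xpo7*, a nuclear exporter (r = 0.97), and among the 10 genes *Ppp1r15a* was nearest to it (r = 0.89).

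Strand was not used in counting and reads that overlapped several genes were left out, so that some counts miss the reads on exonic bases shared with another gene. In mm39, *Eif2ak1* lies on chromosome 5 (143803543-143841069, plus strand) and shares 11.6% of its exonic bases with *Ankrd61* and *Aimp2* on the opposite strand. *Ddit3* on chromosome 10 (127126643-127132157, plus) shares 10.9% with its own second row on the same strand and with *Mars1* and *Gm4189* on the opposite strand, and *Eif2ak3* on chromosome 6 (70821499-70882229, plus) shares 8.05%. *Atf5* on chromosome 7 (44461680-44466082, minus) shares 4.11% and *Ppp1r15a* (7:45172340-45175692, minus) 0.41%. *Trib3* and *Chac1* on chromosome 2 (152179342-152185952, minus, and 119181710-119184862, plus), *Eif2ak4* on the same chromosome (118219099-118305715, plus), *Atf4* on chromosome 15 (80139385-80141742, plus) and *Nupr1* on chromosome 7 (126222421-126230033, minus) share none.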

How the data were processed

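RNA-seq counts of 16 libraries were analysed. The authors mapped reads to mm39 with STAR 2.7.9 and counted read pairs per gene with featureCounts 1.6.4 on exons of the Ensembl annotation, unstranded, and deposited raw counts, of which 4 library columns matched no sample analysed here and were not used. Symbols came from GENCODE mouse release 39 (54749 of 55416 genes matched). Groups and embryo numbers came from the sample labels. Same-numbered libraries are the same embryo, and their deviations from the group means correlated at r = 0.07, 0.22, 0.33 and 0.32 in WT embryos 0, 1, 5 and 8, 0.42 in KO and 0.05 in Het.

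Counts were scaled by TMM and tested with edgeR 4.0.16 (glmQLFit with legacy=TRUE, glmQLFTest; R 4.3.3) within each comparison, without covariates, on genes with a mean normalised count above 10, with Benjamini-Hochberg adjustment and a threshold of 0.05. The study's methods name DESeq2 and no design formula. CPM were scaled by TMM over all 16 libraries, and counts per kilobase used the deposited gene length. Depth was 20666044 to 37609502 counts per library. P-values measure the spread between embryos of a group. Genes with a mean of at most 10 reads in 1 of the groups compared, which the other group carried past the filter, were left out of list counts where stated.

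Alternatives were DESeq2 1.42.0, sex as a covariate with either tool, no filter, filterByExpr, RLE size factors, globin genes left out of the scaling, legacy=FALSE, all 16 libraries in 1 fit, an embryo block and each embryo left out in turn. Library totals without TMM, and leaving out WT embryos 0 and 8, were added after the data were seen. The 10 genes and all lists were chosen with earlier results of these data known. Named list genes were those called in KO, Het or the interaction, at most 5 a list, plus the 3 of smallest p in KO against WT at S3, and for likeness the 3 highest r among genes with a mean above 50. A gene that this rule would name is not reported here. Markers of megakaryocytes at S3 summed to 62.0 to 123 CPM in KO and 59.1 to 105 CPM in WT, of neutrophils to 1.54 to 12.9 and 1.11 to 4.78 CPM and of early progenitors to 6.47 to 11.8 and 5.79 to 8.83 CPM. Upstream windows and motifs were read from GRCm39 with Python 3.11.15. The fits were tested on simulated counts.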

Additional observations from a re-analysis of the deposited data

Results flagged for a closer look

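Among the 10 genes, the lowest or highest of the 4 WT libraries at a stage stood apart from the others on the log2 scale in 2 of 20 groups examined, where chance sets about 1 in 20 apart. *Nupr1* at S1 was at 1.05 CPM in WT embryo 8, while the other 3 were between 2.04 and 2.12 CPM. *Atf5* at S1 was at 0.187 CPM in WT embryo 0, which is 6 reads, against 10 to 13 reads in the other 3. Both embryos are those whose S1 libraries stood apart in globin and neutrophil transcripts, and whether this plays a part was not tested.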

How the results depend on the processing

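The number of the 10 genes called in KO against WT at S3 was 1, and became 3 with DESeq2, 5 with DESeq2 and sex, 4 with edgeR and sex, 3 with no filter and 2 with all 16 libraries in 1 fit. At S1 it was 0, and became 2 with DESeq2, 2 with DESeq2 and sex and 1 with edgeR and sex. In Het against WT it was 0, and became 2 at S3 and 1 at S1 with DESeq2 and sex, and 1 at each stage with edgeR and sex. The cause of these changes was not tested. In KO at S3 DESeq2 called 2.19% of all genes and edgeR with sex 4.63%. In KO at S1 DESeq2 called 0.321%, and in Het edgeR with sex called 18.1% at S3 and 2.87% at S1. No share over all genes is given for the other settings named, so those counts are not read as a result about the 10. Over all genes at S3, 54 were called higher and 12 lower in KO, 285 and 262 with edgeR and sex, and 144 and 115 with DESeq2, while 11 were called in all without WT embryo 0, 11 without embryo 8 and 5 without both. At S1 edgeR called 1 gene, DESeq2 45, and in the comparison of stages library totals alone changed the calls from 4142 higher and 4728 lower to 1869 and 8524.

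Without WT embryos 0 and 8 these log2 fold changes turned sign, all of genes not called: KO at S3 *Eif2ak1* 0.014; KO at S1 *Eif2ak1* 0.27, *Eif2ak3* 0.26, *Eif2ak4* 0.089 and *Ppp1r15a* 0.0043; Het at S3 *Eif2ak1* 0.055, *Eif2ak3* 0.21, *Atf4* 0.12, *Trib3* -0.066, *Chac1* 0.082 and *Ppp1r15a* 0.043; Het at S1 *Eif2ak1* 0.16, *Eif2ak3* 0.17, *Trib3* 0.028, *Chac1* 0.26, *Nupr1* -0.16 and *Ppp1r15a* 0.077; interaction *Trib3* -0.33 and *Ppp1r15a* -0.23. With library totals alone Het *Trib3* at S3 was -0.0007, Het *Nupr1* at S1 -0.060, *Nupr1* between stages -0.25 and the interaction of *Eif2ak1* 0.096. *Atf4* in KO at S3 was -0.0010 with no filter, -0.0056 with filterByExpr and -0.0016 with all 16 libraries. With sex, Het *Nupr1* at S3 was 0.049 (DESeq2) and 0.0077 (edgeR), and Het *Ddit3* at S1 was 0.0082 and 0.016. Het *Ddit3* at S1 was 0.0012 with filterByExpr, and Het *Nupr1* at S1 was -0.0092 with all 16 libraries.

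With 1 embryo left out in turn, the ranges that crossed 0 were, in KO at S3, -0.19 to 0.50 for *Eif2ak3*, -0.53 to 0.66 for *Eif2ak4* and -0.30 to 0.26 for *Atf4*. In KO at S1 they were -0.37 to 0.14 for *Eif2ak1*, -0.59 to 0.25 for *Eif2ak3*, -0.35 to 0.13 for *Eif2ak4*, -0.015 to 0.40 for *Atf4* and -0.18 to 0.030 for *Ddit3*. In Het at S3 they were -0.44 to 0.092 for *Eif2ak4*, -0.11 to 0.19 for *Trib3*, -0.26 to 0.23 for *Chac1* and -1.09 to 0.10 for *Nupr1*. In Het at S1 they were -0.48 to 0.0041 for *Eif2ak1*, -0.47 to 0.14 for *Eif2ak3*, -0.13 to 0.081 for *Ddit3*, -0.21 to 0.086 for *Chac1* and -0.40 to 0.34 for *Nupr1*. Between stages the range was -0.36 to 0.18 for *Eif2ak3*, and for the interaction -0.24 to 0.049 for *Eif2ak1*, -0.23 to 0.65 for *Eif2ak4* and -0.11 to 1.07 for *Nupr1*. Where 1 embryo was left in an arm, it was assumed to vary like the other group. The embryo as a replicate block left the number of genes called at 7 between stages and 0 in the interaction, and changed no call among the 10 genes. Of 970 values of single genes under other settings, 65 turned sign and 879 kept their sign and their side of the threshold. *Atf5*, with 179 reads over the 16 libraries, was too scarce for a difference to be judged at this depth.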
